A study of Mus musculus with 23 samples.

Results

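Chemokines and their receptors were examined here as a group of 53 protein-coding genes, out of 22852 genes that both deposited tables of liver read counts list. Members were chosen by name, with earlier results of these data known. They are the Ccl and Cxcl ligands, Cx3cl1, the Ccr, Cxcr and Cx3cr1 receptors, the atypical receptors Ackr1 to Ackr4, and Ccrl2. They comprise 20 CC ligands, 11 CXC or CX3C ligands, 17 receptors and 5 atypical receptors.

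Polyadenylated RNA was sequenced from whole livers of 23 mice in 4 groups: B100-Control males (n = 5), B100-LKO males (n = 6), B100-Control females (n = 6) and B100-LKO females (n = 6). LKO denotes ablation of Cpt1a in the liver; the means of deletion and the ages of the mice are not given in the sources used here, and neither B100 nor WD is spelled out. All mice, controls included, carried the B100 designation, were WD-fed for 16 weeks and were sampled in the fed state. Total counts ran from 14224665 to 19626662 per sample. Cpt1a, whose product brings long-chain fatty acids to the mitochondrial oxidation pathway, averaged 362 ± 51.05 CPM (counts scaled to library size; SD, n = 5) in control males and 63.9 ± 20.3 CPM (SD, n = 6) in LKO males. In females it averaged 383 ± 57.8 CPM in controls and 75.0 ± 8.54 CPM in LKO livers (SD, n = 6 each). The labels do not say more about the replicates than that they are separate samples, and the p-values below measure the spread between these samples.

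Chemokines are small secreted proteins that direct the movement of leukocytes. Their receptors are G-protein-coupled proteins on the surface of the responding cell, while the atypical receptors bind chemokines without coupling to G proteins and mostly scavenge them. In the liver, resident macrophages, endothelial cells, stellate cells and hepatocytes produce chemokines, and the receptors are mainly carried by the immune cells that enter from blood, so that Ccr2 and Cx3cr1 are widely used to recognise monocytes and macrophages derived from them.

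The promoters of the members were read because 5 of the genes rose in LKO females and several ligands lie next to each other in the genome. RefSeq promoter entries (GRCm38.p6) were found for 40 of the 53 members. The 250 bases before the start were searched on both strands for the letters GGGA, any base and TTTCC in a row (an NF-kB site), GAGGAA (the core of a PU.1 site, PU.1 being the lineage factor of myeloid cells) and TGANTCA (an AP-1 site). The NF-kB letters were present in 3 of 40 members (7.5%), namely Ccr3, Cxcl1 and Cxcl2, and in 0.337% of the 27025 promoters in the table. Of these, Cxcl1 and Cxcl2 are neighbours 10.8 kb apart. Ccr3 averaged 1.35 counts per sample, and its promoter is not printed here. The PU.1 core was present in 12 of 40 members (30.0%) against 23.1% of all promoters, and the AP-1 letters in 4 of 40 (10%) against 6.87%. Shown first are the promoters of Ccl6 (chr11:83593088-83593337, minus strand) and Cxcl14 (chr13:56296552-56296801, minus strand), the called ligands that have an entry; each shows the 250 bases before the start, and neither holds any of the searched letters. Cxcl16 has no entry, and the windows of Ccr2 and Cx3cr1 lie in annotated untranslated regions. Cxcl1 (chr5:90890995-90891240, plus strand) and Cxcl2 (chr5:90903649-90903870, plus strand) follow because both hold the NF-kB letters, in capitals, starting 71 bases before the start in Cxcl1 and 97 bases before it in Cxcl2. A match to such letters is a description of the sequence only.
Ccl6: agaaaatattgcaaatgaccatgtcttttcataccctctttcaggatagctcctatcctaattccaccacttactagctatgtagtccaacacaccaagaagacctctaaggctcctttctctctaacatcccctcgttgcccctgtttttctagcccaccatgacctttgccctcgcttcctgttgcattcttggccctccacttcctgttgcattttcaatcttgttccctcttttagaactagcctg
Cxcl14: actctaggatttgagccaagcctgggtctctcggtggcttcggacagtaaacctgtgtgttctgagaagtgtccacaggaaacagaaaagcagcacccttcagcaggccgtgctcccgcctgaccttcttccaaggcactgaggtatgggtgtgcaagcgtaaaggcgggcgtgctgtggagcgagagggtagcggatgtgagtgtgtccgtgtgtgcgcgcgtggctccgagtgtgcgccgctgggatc
Cxcl1: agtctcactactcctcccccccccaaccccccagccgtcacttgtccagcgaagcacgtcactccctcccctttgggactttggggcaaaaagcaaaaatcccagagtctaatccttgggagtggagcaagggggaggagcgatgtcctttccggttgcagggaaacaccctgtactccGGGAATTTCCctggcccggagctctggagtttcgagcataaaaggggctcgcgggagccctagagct
Cxcl2: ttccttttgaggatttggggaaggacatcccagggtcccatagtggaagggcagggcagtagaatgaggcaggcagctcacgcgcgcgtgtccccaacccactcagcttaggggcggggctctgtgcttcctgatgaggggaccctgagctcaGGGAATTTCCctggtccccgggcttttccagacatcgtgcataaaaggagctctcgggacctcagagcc

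Members differed widely in level. Levels between genes were compared as FPKM, the deposited fragments per kilobase scaled to library size, averaged over all 23 samples. Cxcl12, the stromal ligand of Cxcr4, had the highest mean at 29.2 FPKM. It was followed by Cxcl1 at 15.35, Ccl9 at 12.6 and Ccl6 at 11.55 FPKM. Cxcl9 at 5.41, Cxcl16 at 4.88 and Ccl5 at 4.73 FPKM came next. The receptors were lower, led by Cxcr4 at 2.35 and Ccr7 at 1.01 FPKM, and Ccrl2 at 1.68 FPKM led the atypical receptors. A mean under 10 counts was taken as near the floor. By that mark 19 members were near the floor in males and 19 in females, 18 of them in both tables: 7 CC ligands, the CXC ligand Cxcl5 and 10 receptors, which include Cxcr1, Cxcr2, Ccr1, Ccr3 and Cxcr6. Ccl3 was near the floor only in females and Cxcr5 only in males.

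**Figure D1:**
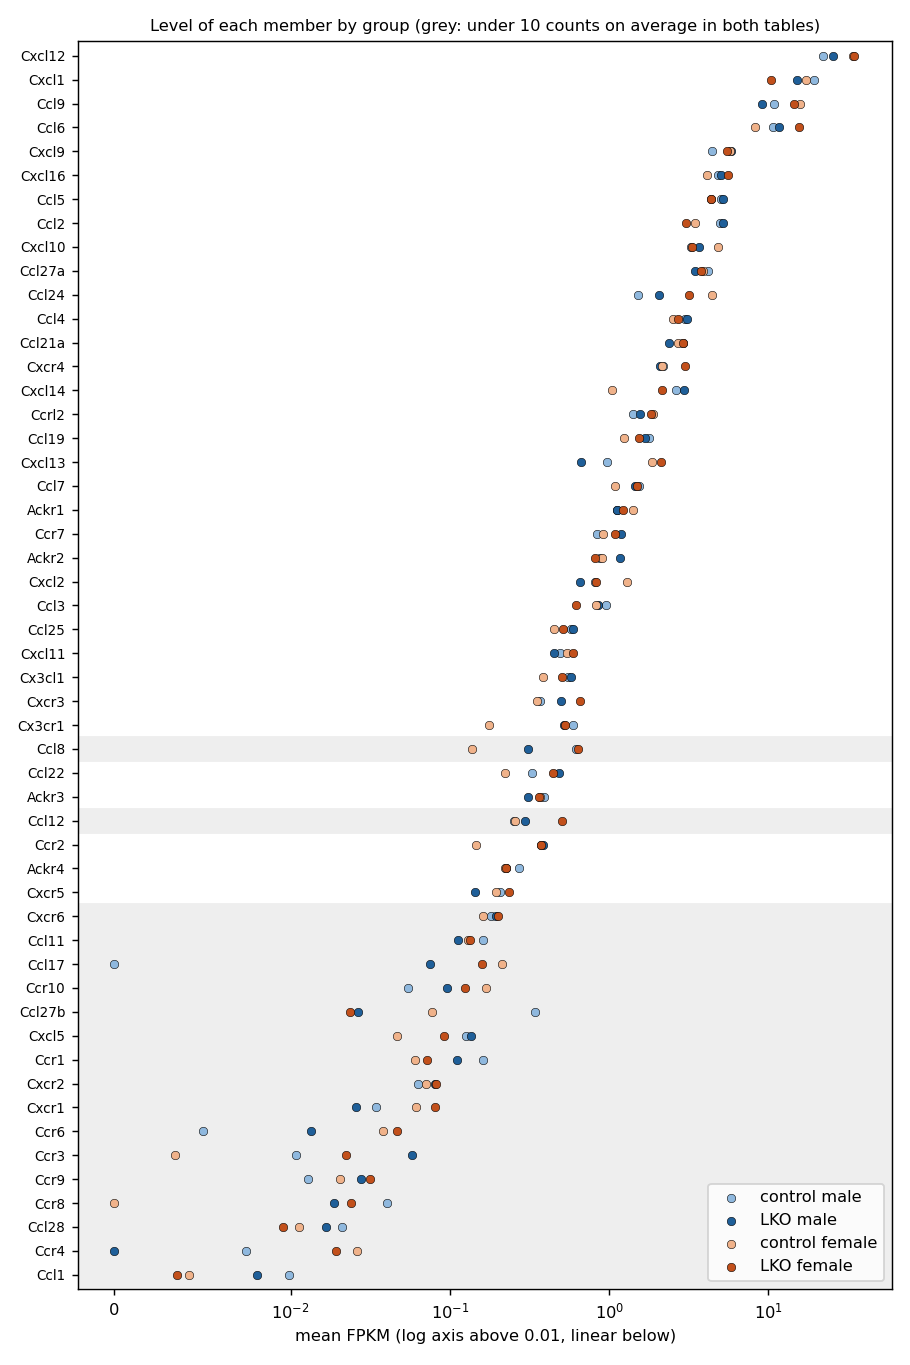
Mean deposited FPKM (log axis above 0.01, linear below) of the members in the 4 groups, ordered by the mean over all samples. Cxcl12 heads the order at 29.2 FPKM, and grey rows mark the 18 members under 10 counts on average in both tables.

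Female LKO livers held more mRNA of 5 members than female controls, and no member was lower at the same threshold. The 5 were the ligands Ccl6, Cxcl14 and Cxcl16 and the receptors Ccr2 and Cx3cr1, with log2 fold changes of 0.44 to 1.57. In males none was called and the same 5 genes had log2 fold changes of -0.20 to 0.16. The receptors Ccr7, Cxcr3 and Cxcr4 had female log2 fold changes of 0.25 to 0.91 that did not pass the test.

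A member was called at an adjusted p under 0.05 in edgeR's quasi-likelihood test, with p-values adjusted by Benjamini-Hochberg across the genes tested in that table. In females 33 members were tested, of which 5 were called, all higher; of all 13684 genes tested, 1.42% were called and 0.928% were called higher. In males 34 members were tested and 0 were called, against 0.00724% of 13805 genes. At an unadjusted p under 0.05, 8 female members were higher and 1 was lower, where 15.6% of all genes lay under that level and 8.31% did so with a higher value in LKO. In males 2 were higher and 0 lower, where it was 12.5%, and 5.23% with a higher value. Complete separation of the 6 control from the 6 LKO samples was seen in 4 of the members tested in females, all higher in LKO, against 1.59% of all genes, or 1.05% with LKO higher. In males no member separated the groups, against 1.77% of all genes, or 0.674% with LKO higher. DESeq2 called 0 members in males and 6 in females, among 0.826% and 4.09% of all genes. The authors' deposited table also holds 0 members in males and 6 in females with an adjusted p under 0.05, against 0.438% and 2.22% of its genes. The median log2 fold change over the tested members was 0.11 in females and 0.04 in males, next to 0.01 and 0.01 over all genes tested. Of the 33 members tested in females, 5 pass the filter on low counts through the LKO samples and not on the controls alone; Cx3cr1 is among them. With no filter, all 53 members were tested in females and the same 5 were called. When all 23 samples were fitted together, sharing the spread of both sexes, 0 members were called in females, and the edgeR adjusted p of the 5 was 0.0768 to 0.183.

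**Figure D2:**
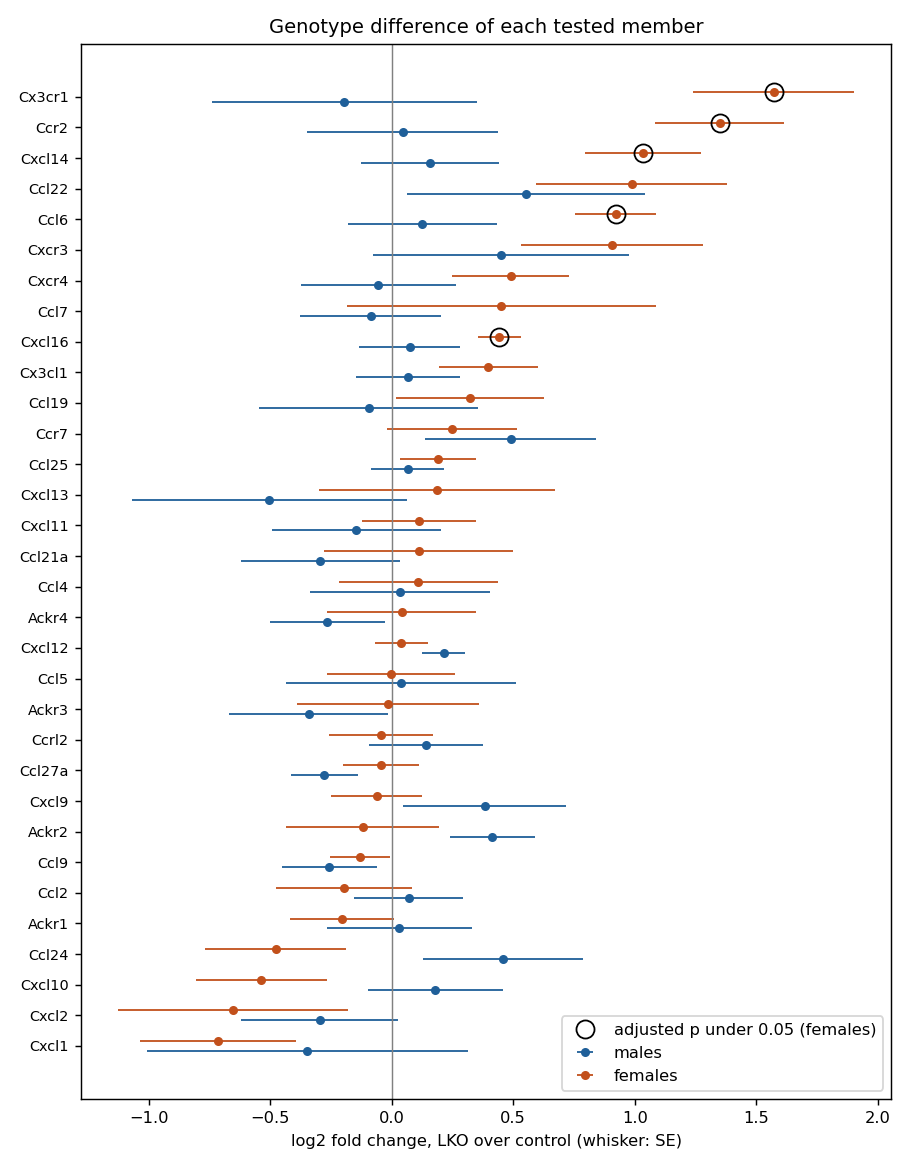
Log2 fold change of LKO over control (points, whiskers show the standard error) for members tested in both sexes, males in blue and females in orange. Rings mark the 5 members with an adjusted p under 0.05 in females, at 0.44 to 1.57; no male value has a ring.

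Among the CC ligands, Ccl6 rose in LKO females. Ccl6 is a mouse macrophage chemokine that attracts myeloid cells, and its gene (ENSMUSG00000018927) lies on the minus strand of chromosome 11 at 83478708 to 83483913 (table coordinates; build mm39 per the submitters' processing notes). Female controls ranged from 10.8 to 17.2 CPM with a median of 15.8, and LKO females from 20.65 to 41.5 CPM with a median of 25.3. Every LKO female was above every control female. The means were 14.75 ± 2.50 and 27.9 ± 7.78 CPM (SD, n = 6 each), a 1.89-fold difference, with a log2 fold change of 0.92 (SE 0.17, adjusted p 0.0135 by edgeR's quasi-likelihood test). No single sample decided this call, which was made in all 12 fits with 1 sample removed. Here and for the members below, more cells of a type and more RNA per cell (or fewer cells and less RNA per cell) cannot be told apart in bulk liver RNA. Control males held 34.3, 11.5, 23.6, 15.9 and 12.5 CPM of Ccl6 in replicates 1, 2, 3, 4 and 6, and LKO males ranged from 11.1 to 29.9 CPM with a median of 21.3. The male groups overlapped throughout, and the log2 fold change was 0.13 (SE 0.31, edgeR adjusted p 0.912), or -0.0068 when control male replicate 2 was left out and 0.43 when replicate 1 was.

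Ccl9, the close relative of Ccl6 whose gene lies 9.25 kb away, was not called. It ranged from 32.7 to 58.25 CPM in control females (median 48.8) and from 38.5 to 53.7 CPM in LKO females (median 43.4). These ranges overlap almost entirely, and the log2 fold change was -0.13 (SE 0.12, edgeR adjusted p 0.675). In males it was -0.26 (SE 0.20, edgeR adjusted p 0.63), with controls from 21.4 to 43.2 CPM and LKO livers from 18.7 to 35.25 CPM. Ccr1, through which Ccl6 and Ccl9 are known to act, had 0 to 15 counts per sample in all groups. It and the other ligand and receptor partners without sample values are named after their values were seen.

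Ccl22, which attracts T cells through Ccr4 and is typical of mature dendritic cells, was low in both sexes. Female controls ranged from 0.332 to 0.916 CPM with a median of 0.461 and LKO females from 0.249 to 1.77 CPM with a median of 1.02. The lowest value among the females belonged to LKO female replicate 3, and the female groups overlapped. The log2 fold change was 0.99 (SE 0.39, unadjusted p 0.0236, edgeR adjusted p 0.238) in females and 0.55 (SE 0.49, edgeR adjusted p 0.691) in males. Its receptor Ccr4 was near the floor in both tables.

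Ccl5, a chemokine made by T and NK cells, did not separate the groups. It ran from 2.86 to 7.82 CPM in control females and from 2.81 to 5.41 CPM in LKO females, with medians of 3.17 and 4.02. In control males, replicate 1 stood at 14.3 CPM while the other 4 lay between 1.66 and 3.74 CPM; LKO males ran from 2.97 to 6.38 CPM. Leaving that library out moved the male log2 fold change from 0.04 (SE 0.47, edgeR adjusted p 0.985) to 0.97. In females the value was -0.0037 (SE 0.26, edgeR adjusted p 0.997), with its sign turning under other scalings, so that no direction is given. The remaining CC ligands tested in females had log2 fold changes of -0.48 (Ccl24, an eosinophil chemokine) to 0.45 (Ccl7). Ccl2, the main monocyte chemokine and a ligand of Ccr2, was 3.95 ± 1.97 CPM in control females and 3.46 ± 0.585 CPM in LKO females (SD, n = 6 each; log2 fold change -0.19, SE 0.28, edgeR adjusted p 0.802). Ccl7, another Ccr2 ligand, ran from 0 to 2.52 CPM in control females and from 0.808 to 1.65 CPM in LKO females, with a log2 fold change of 0.45 (SE 0.64, adjusted p 0.798 in edgeR). Neither of these Ccr2 ligands was called in males either (0.07 and -0.09). Ccl27a and Ccl21a have near-identical copies in the mouse genome and their counts are uncertain for that reason, and Ccl27a also overlaps Il11ra1 on the opposite strand.

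Among the CXC and CX3C ligands, Cxcl14 and Cxcl16 rose in LKO females. Cxcl14 is a chemokine of epithelia and stroma whose gene (ENSMUSG00000021508) lies on the minus strand of chromosome 13 at 56436456 to 56444364. In control females it ranged from 0.929 to 2.75 CPM with a median of 1.92, and in LKO females from 3.11 to 5.33 CPM with a median of 3.75. The groups did not overlap. The means were 1.91 ± 0.709 and 3.94 ± 0.884 CPM (SD, n = 6 each), 2.05-fold apart, with a log2 fold change of 1.03 (SE 0.24, adjusted p 0.0486 in edgeR). This call sits at the threshold: of the 12 fits with 1 sample removed, only the one without control female replicate 2 kept it (adjusted p 0.0362), and in the other 11 the adjusted p was 0.0513 (without LKO female replicate 6) to 0.114 (without LKO female replicate 4), with log2 fold changes of 0.89 to 1.12. Males were at 3.10 to 7.15 CPM in controls and 3.39 to 8.84 CPM in LKO livers (medians 4.28 and 5.01), with a log2 fold change of 0.16 (SE 0.28, adjusted p 0.875 in edgeR), or -0.02 without LKO male replicate 3.

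Cxcl16, a transmembrane ligand of Cxcr6 that also acts as a scavenger receptor on macrophages (ENSMUSG00000018920, chromosome 11, 70344809 to 70350810, minus strand), showed a smaller and tighter difference. Control females ranged from 10.02 to 13.9 CPM with a median of 12.7, and LKO females from 14.9 to 18.7 CPM with a median of 16.6. Again the groups did not overlap. The means of 12.3 ± 1.34 and 16.75 ± 1.30 CPM (SD, n = 6 each) were 1.36-fold apart, with a log2 fold change of 0.44 (SE 0.09, adjusted p 0.0241 in edgeR). The call was lost without control female replicate 6 (adjusted p 0.0508), LKO female replicate 2 (0.0651) or LKO female replicate 3 (0.0558). Zmynd15 overlaps Cxcl16 on the opposite strand with 102 to 187 counts in females and a log2 fold change of 0.17 (edgeR adjusted p 0.564), and whether the counting used strand is not given in the sources used here. Males ran from 10.52 to 21.8 CPM in controls and from 12.3 to 21.3 CPM in LKO livers, overlapping, with a log2 fold change of 0.07 (SE 0.21, adjusted p 0.926 in edgeR), which was negative without control male replicate 4 (-0.02), control male replicate 6 (-0.03) or LKO male replicate 3 (-0.02). Its receptor Cxcr6, carried by T and NKT cells, had 0 to 14 counts per sample over all groups.

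Cxcl1, a neutrophil attractant, varied widely among samples of a group. Values in control females ran from 10.4 to 51.3 CPM with a median of 32.7, and LKO females from 10.9 to 36.1 CPM with a median of 17.3. The groups overlapped, and the log2 fold change of -0.72 (SE 0.32, unadjusted p 0.0421, edgeR adjusted p 0.299) did not pass. In males 1 library of each genotype lay far above the rest: control replicate 4 at 85.4 CPM against 13.2 to 33.2 CPM for the others, and LKO replicate 1 at 106.5 CPM against 7.06 to 19.4 CPM. The male log2 fold change was -0.35 (SE 0.66, edgeR adjusted p 0.882); it was 0.22 without that control and -1.45 without that LKO library, so its direction rests on single samples. Cxcl2, 10.8 kb away and likewise a neutrophil ligand, had log2 fold changes of -0.65 (SE 0.47, edgeR adjusted p 0.555) in females and -0.30 (SE 0.32, edgeR adjusted p 0.767) in males. Cxcr2, the receptor of both on neutrophils, had 0 to 10 counts per sample.

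The stromal ligand Cxcl12 hardly differed between female groups. Control females ranged from 246 to 332 CPM with a median of 271, and LKO females from 208 to 319 CPM with a median of 299; the log2 fold change was 0.04 (SE 0.11, edgeR adjusted p 0.906). Control males were close together at 182, 176, 185, 181 and 186 CPM in replicates 1, 2, 3, 4 and 6, and LKO males ranged from 175 to 240 CPM with a median of 217. Of the 6 LKO males, 5 were above every control and replicate 2 was below every control. The log2 fold change in males was 0.21 (SE 0.09, unadjusted p 0.0301, edgeR adjusted p 0.351). Cxcl9, an interferon-gamma induced ligand of Cxcr3, ranged from 13.65 to 29.3 CPM in control females and from 13.04 to 22 CPM in LKO females (log2 fold change -0.06, SE 0.19, edgeR adjusted p 0.916). In control males replicate 1 reached 30.9 CPM and the other 4 lay at 7.61 to 13.2 CPM, while LKO males ran from 11.7 to 23.05 CPM; the log2 fold change was 0.38 (SE 0.34, edgeR adjusted p 0.686) with that library and 0.93 without it. Cxcl10, of the same cluster as Cxcl9, had a female log2 fold change of -0.54 (SE 0.27, adjusted p 0.354 in edgeR). Cx3cl1, the single known ligand of Cx3cr1, averaged 1.51 ± 0.420 CPM in control females and 1.997 ± 0.289 CPM in LKO females (SD, n = 6 each; log2 fold change 0.40, SE 0.20, edgeR adjusted p 0.367).

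Only 6 of the 17 receptors were tested in each sex, the others being at low counts. In females all 6 had positive log2 fold changes, with a median of 0.73, and 2 were called. Over all genes tested in females, 51.1% were positive, the median was 0.01 and 1.42% were called. Cx3cr1 and Cxcr3 pass the filter on low counts only with the LKO samples included, so their positive signs are not independent of the filter. In males 4 were positive and 2 negative, with a median of 0.19, next to 52.1% positive and a median of 0.01 over all genes. The 2 called receptors share chromosome 9 with 11 further members.

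Ccr2, the receptor by which monocytes leave bone marrow and enter inflamed tissue (ENSMUSG00000049103, chromosome 9, 123901987 to 123913594, plus strand), rose in LKO females. Control females ranged from 0.689 to 1.42 CPM with a median of 0.980, and LKO females from 1.46 to 3.29 CPM with a median of 2.76. The groups did not overlap, although LKO replicates 1 and 5, at 1.46 and 1.53 CPM, came close to the highest control. The means were 0.984 ± 0.266 and 2.52 ± 0.879 CPM (SD, n = 6 each), 2.55-fold apart, with a log2 fold change of 1.35 (SE 0.27, adjusted p 0.0218 in edgeR). The counts behind these values were 11 to 22 per control and 23 to 67 per LKO female. The call was lost without control female replicate 5 (adjusted p 0.0614), LKO female replicate 2 (0.0627), LKO female replicate 3 (0.0565) or LKO female replicate 4 (0.0587). Male controls ranged from 1.81 to 4.22 CPM (median 1.94) and LKO males from 1.29 to 5.80 CPM (median 2.13), enclosing the controls; the log2 fold change was 0.04 (SE 0.39, edgeR adjusted p 0.978), and between -0.33 (without LKO male replicate 3) and 0.30 (without control male replicate 3) with 1 sample left out.

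Cx3cr1, the fractalkine receptor of monocyte-derived and some resident macrophages (ENSMUSG00000052336, chromosome 9, 119730682 to 119898945, minus strand), had the highest female log2 fold change of the members that passed the filter on low counts. Control females ranged from 0.270 to 1.19 CPM with a median of 0.781, and LKO females from 1.02 to 3.04 CPM with a median of 2.70. The groups overlapped through LKO replicate 1, at 1.02 CPM, which lay under 2 of the controls, and the other 5 LKO females were above all controls. The means were 0.794 ± 0.371 and 2.37 ± 0.813 CPM (SD, n = 6 each), 2.97-fold apart, with a log2 fold change of 1.57 (SE 0.33, adjusted p 0.0333 in edgeR). These rest on 4 to 19 counts per control and 16 to 62 per LKO female. The call was lost without control female replicate 1 (adjusted p 0.0773), control female replicate 6 (0.0723), LKO female replicate 2 (0.0755), LKO female replicate 3 (0.0781) or LKO female replicate 4 (0.0784). The listed span of Cx3cr1 overlaps Gorasp1 and Csrnp1 on the same strand and Wdr48 on the other, whose female log2 fold changes were -0.00086, -0.27 and -0.12 (edgeR adjusted p 0.998, 0.69 and 0.704). It also overlaps Xirp1 on the same strand, which had 0 to 31 counts per female sample and was not tested in females. In males, controls spread from 0.324 to 5.61 CPM, with replicates 1 and 3 above 5 CPM, and LKO males lay inside that range at 0.951 to 3.69 CPM. The log2 fold change was -0.20 (SE 0.55, edgeR adjusted p 0.926), and 0.13 or 0.24 when control male replicate 1 or 3 was left out.

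Ccr2 and Cx3cr1 varied together among the LKO females, in that replicates 1 and 5 were the lowest for both genes and replicates 2, 3 and 4 the highest. Both genes were also at a lower level in control females than in the other groups: the male means of Ccr2 were 2.58 CPM in controls and 2.65 CPM in LKO livers, and the female means 0.984 and 2.52 CPM. For Cx3cr1 the male means were 2.75 and 2.41 CPM and the female means 0.794 and 2.37 CPM. Its control males spread from 0.324 to 5.61 CPM with a median of 1.90, reaching into the range of the control females. All of the called genes were called for being higher in LKO than in control females, so that part of the order was fixed by the choice. The called ligands also had their lowest group mean in control females. That mean was 1.91 CPM for Cxcl14 (other groups 3.94 to 5.50), 14.75 for Ccl6 (19.5 to 27.9) and 12.3 for Cxcl16 (14.8 to 16.75). The sexes come from separately deposited tables and are set side by side here without a test.

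**Figure D3:**
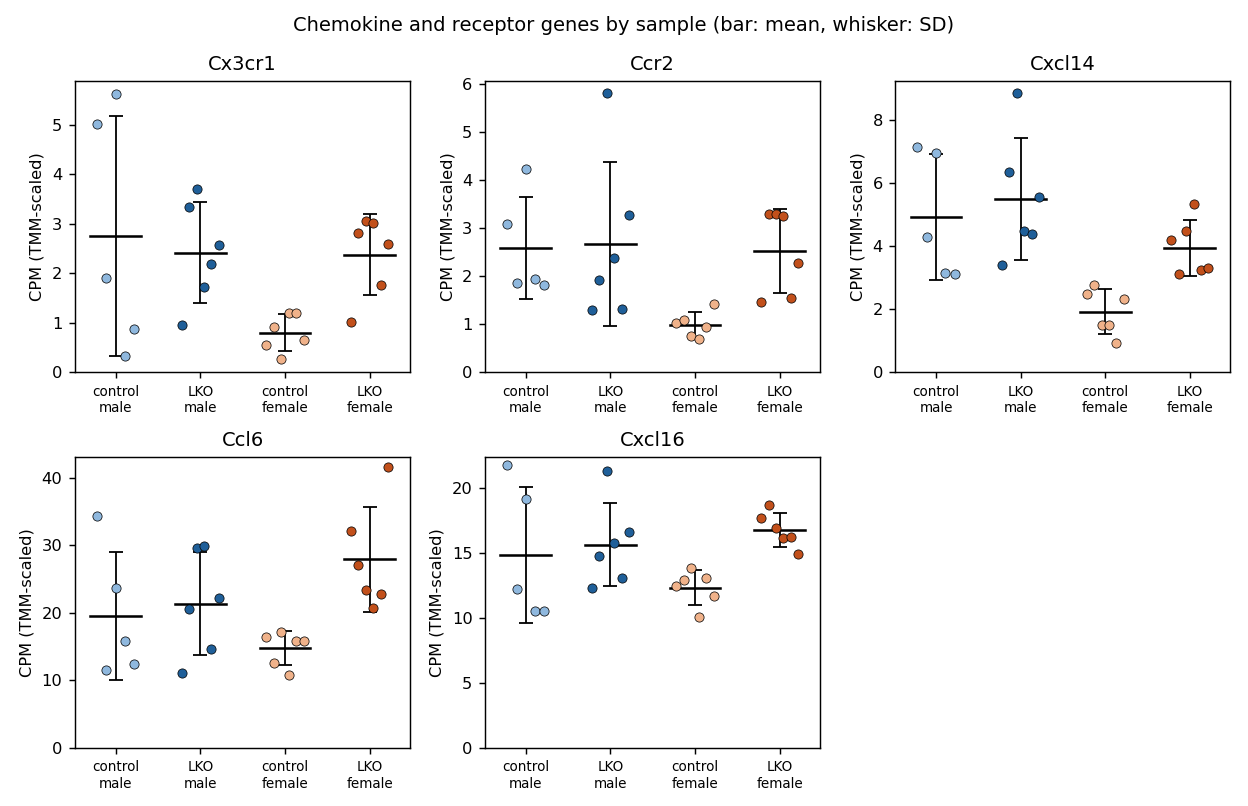
CPM (scaled by TMM factors) of the 5 members called in females in each sample of the 4 groups; bars are means and whiskers SD. All LKO females lie above all control females for Ccr2, Cxcl14, Ccl6 and Cxcl16, LKO female 1 lies within the controls for Cx3cr1, and the male groups overlap in every panel.

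Cxcr3, carried by activated T cells, ranged from 0.229 to 0.905 CPM in control females and from 0.506 to 1.93 CPM in LKO females, with overlap. Its log2 fold change was 0.91 (SE 0.38, unadjusted p 0.0293, edgeR adjusted p 0.259) in females. In males it was 0.45 (SE 0.53, edgeR adjusted p 0.785), and 1.38 without control male replicate 1, which at 1.88 CPM stood apart from the other 4 controls at 0.234 to 0.483 CPM. Cxcr4, the Cxcl12 receptor, ran from 1.88 to 4.67 CPM in control females and from 3.64 to 9.24 CPM in LKO females, where replicate 5 was highest; its log2 fold change was 0.49 (SE 0.24, edgeR adjusted p 0.347). In males its value was -0.06 (SE 0.32, edgeR adjusted p 0.965), with controls from 2.99 to 5.67 CPM and LKO livers from 1.44 to 5.62 CPM. Ccr7, which guides dendritic and T cells to lymph nodes, had log2 fold changes of 0.25 (SE 0.27, edgeR adjusted p 0.721) in females and 0.49 (SE 0.35, edgeR adjusted p 0.602) in males. LKO female replicate 5 was the highest of its group for Ccr7 too, at 3.80 CPM against 1.02 to 2.17 CPM, and without it the female log2 fold change of Ccr7 was 0.0082.

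Of the 5 atypical receptors, none was called in either sex, Ackr2 in males was the only one at an unadjusted p under 0.05, and their female log2 fold changes lay between -0.20 and 0.04. Ackr2, a scavenger of inflammatory CC chemokines, ranged in control males over 2.51, 2.85, 3.44, 2.02 and 3.10 CPM in replicates 1, 2, 3, 4 and 6, and in LKO males from 3.16 to 4.96 CPM with a median of 3.51. The groups overlapped and LKO replicate 1 stood above the rest. The log2 fold change in males was 0.41 (SE 0.18, unadjusted p 0.035, edgeR adjusted p 0.366), while in females it was -0.12 (SE 0.32, edgeR adjusted p 0.902). Ccrl2, which binds chemerin, averaged 4.90 ± 1.73 CPM in control females and 4.75 ± 0.666 CPM in LKO females (SD, n = 6 each; log2 fold change -0.04, SE 0.22, edgeR adjusted p 0.951), and in males its log2 fold change was 0.14 (SE 0.23, edgeR adjusted p 0.868). Ackr1, an endothelial chemokine binder, ranged from 1.72 to 2.36 CPM in control females and from 1.02 to 2.30 CPM in LKO females, with a log2 fold change of -0.20 (SE 0.21, adjusted p 0.707 in edgeR). In males its log2 fold change was 0.03 (SE 0.30, edgeR adjusted p 0.98).

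**Figure D4:**
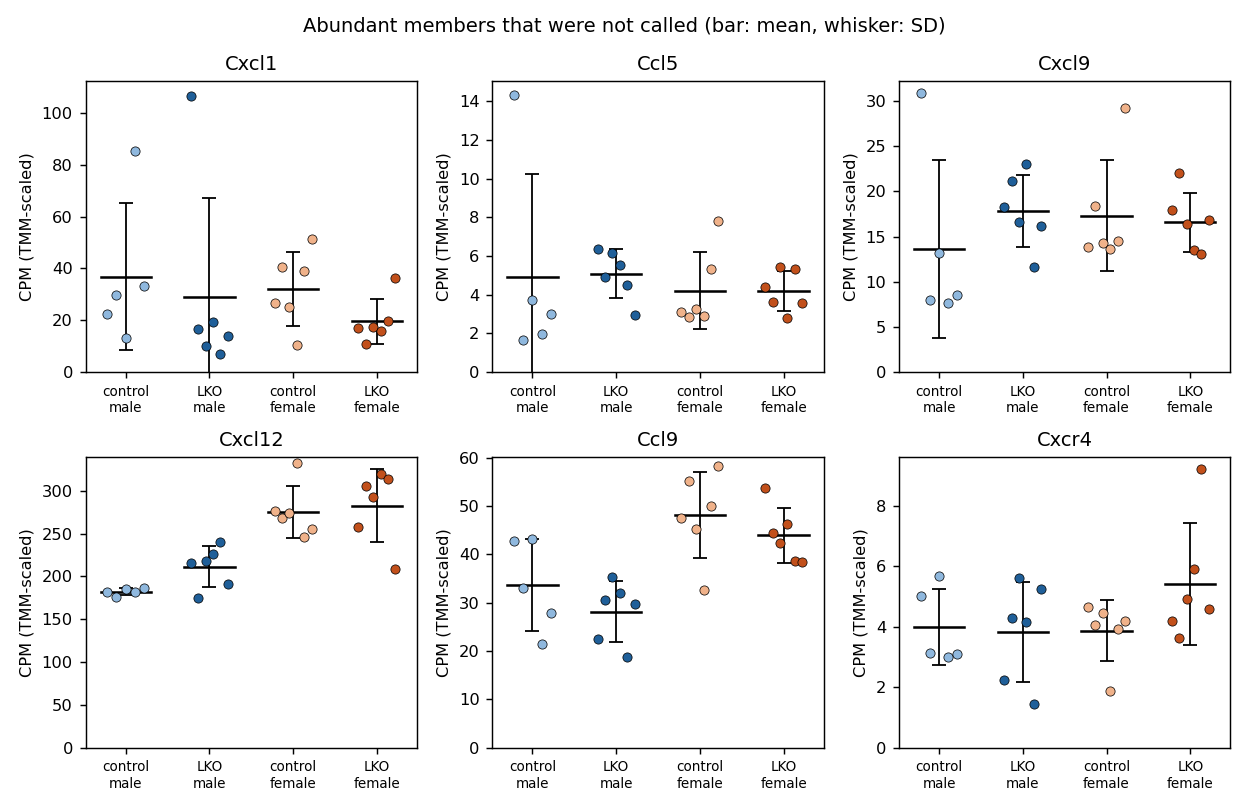
CPM (scaled by TMM factors) of 6 abundant members that were not called, in each sample of the 4 groups; bars are means and whiskers SD, cut at 0. Single male libraries stand far above their groups for Cxcl1 (85.4 and 106.5 CPM) and, in control replicate 1, for Ccl5 (14.3 CPM) and Cxcl9 (30.9 CPM).

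Whether the genotype difference itself differed between the sexes was tested as an interaction over all 23 samples. Of 35 members tested, 0 were called, as were 0 of 14503 genes in all (0.0%). At an unadjusted p under 0.05 there were 4 members, all with a positive difference, where 12.9% of all genes lay under that level, or 6.98% with a positive difference, and DESeq2 called 0 members and 0.669% of genes. The 4 members were Cx3cr1, with a difference in log2 fold change (females minus males) of 1.76 (SE 0.68, adjusted p 0.293), Ccr2 with 1.31 (SE 0.49, adjusted p 0.291), Cxcl14 with 0.87 (SE 0.38, adjusted p 0.352) and Ccl6 with 0.79 (SE 0.36, adjusted p 0.362), all by edgeR's quasi-likelihood test. For Cxcl16 the difference was 0.37 (SE 0.22, edgeR adjusted p 0.502). These genes were thus called in females and not in males without a called difference between the sexes.

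The genes through which chemokine receptors signal were taken as a list of 25, all tested. None was called in either sex by edgeR, and DESeq2 called 0 in both sexes. At an unadjusted p under 0.05 in edgeR there were 4 in females (16.0%) and 1 in males (4.0%), all higher. Over all genes tested, 15.6% lay under that level in females and 12.5% in males, or 8.31% and 5.23% with LKO higher. In females 22 had positive log2 fold changes, with a median of 0.17, next to 51.1% positive and a median of 0.01 over all genes. In males 23 were positive with a median of 0.12, next to 52.1% and 0.01. The lowest p in females belonged to Itgb2, the leukocyte integrin beta chain (log2 fold change 0.50, SE 0.16, edgeR adjusted p 0.142), Dock2, a Rac activator of leukocytes (0.44, SE 0.16, adjusted p 0.185), and Elmo1, a partner of Dock proteins (0.64, SE 0.25, adjusted p 0.225). In males Plcb2, a phospholipase C downstream of G proteins, came first at 0.77 (SE 0.35, edgeR adjusted p 0.386), followed by Gng2 at 0.60 (SE 0.30, adjusted p 0.441) and Prex1 at 0.29 (SE 0.16, adjusted p 0.482).

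Of 25 inducers and regulators of chemokine transcription, 21 were tested and none was called in either sex by edgeR. DESeq2 called 0 in both sexes. At an unadjusted p under 0.05 in edgeR there were 1 higher and 1 lower in females (4.76% each) and 1 lower in males (4.76%). Over all genes tested the shares at that level were 8.31% higher and 7.33% lower in females, and 7.22% lower in males. The female median log2 fold change was -0.13, with 6 positive and 15 negative, and the male median was -0.01. Over all genes tested, 51.1% were positive in females, and the median was 0.01 in each sex. The lowest p in females were those of Irf8, a myeloid transcription factor (0.23, SE 0.08, edgeR adjusted p 0.155), Nfkbia, the NF-kB inhibitor (-0.48, SE 0.17, adjusted p 0.17), and Rela, an NF-kB subunit (-0.19, SE 0.11, adjusted p 0.403). In males they were Nfkb2 (-0.32, SE 0.11, edgeR adjusted p 0.303), Myd88 (-0.21, SE 0.10, adjusted p 0.422) and Csf1 (0.29, SE 0.16, adjusted p 0.477). Tnf, Il6, Ifng and Csf2 were not tested in females because their counts were low or they were not listed.

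Of 16 further genes of the chemokine system, 13 were tested and Cd74 was called in females, higher in LKO livers. Over all genes tested in females, 0.928% were called higher. Cd74 is the invariant chain of MHC class II and a receptor for the cytokine Mif. It averaged 158 ± 18.4 CPM in control females and 279 ± 69.9 CPM in LKO females (SD, n = 6 each), with a log2 fold change of 0.82 (SE 0.15, adjusted p 0.0146 in edgeR), while in males the value was 0.03 (SE 0.33, edgeR adjusted p 0.982). No gene of this list was called in females when all 23 samples were fitted together. Next in females were Cmtm6 (-0.22, SE 0.08, edgeR adjusted p 0.17) and the syndecan Sdc4 (-0.54, SE 0.21, adjusted p 0.222). In males the 3 lowest p were those of Rarres2, the precursor of chemerin (-0.17, SE 0.09, edgeR adjusted p 0.466), Cmklr1, its receptor (0.53, SE 0.31, adjusted p 0.5), and Mif (-0.21, SE 0.12, adjusted p 0.506).

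Marker lists of liver cell types were summed beside the female result. The 10 markers of recruited monocytes and lipid-associated macrophages summed to 96.9 to 139 CPM in control females and 147 to 213 CPM in LKO females, without overlap. Of the 10, 4 were called higher (Trem2, Spp1, Gpnmb and Mmp12), where 0.928% of all genes tested in females were called higher. Spp1, at mean levels of 37.6 CPM in controls and 59.5 CPM in LKO females, is also in the cholangiocyte list. Ly6c2 and Itgam were not called, with log2 fold changes of 0.50 (SE 0.34, edgeR adjusted p 0.52) and 0.87 (SE 0.40, edgeR adjusted p 0.316). Nor were Itgax (1.17, SE 0.28, edgeR adjusted p 0.0546), Lgals3 (0.54, SE 0.16, adjusted p 0.118) and Cd68 (0.39, SE 0.12, adjusted p 0.116). Cd9 hardly differed (-0.03, SE 0.17, edgeR adjusted p 0.961). The 8 dendritic cell markers summed to 131 to 189 CPM in control females and 173 to 429 CPM in LKO females. The 3 called higher were the MHC class II genes H2-Aa, H2-Ab1 and H2-Eb1, which macrophages and B cells also express. These 3 made up most of the sum, with control female means of 48.85, 52.4 and 49.4 CPM. Clec9a hardly differed, at means of 3.05 CPM in control and 3.07 CPM in LKO females. Flt3 was higher, at 0.409 and 0.872 CPM. Neither was called (adjusted p 0.988 and 0.146 in edgeR). Xcr1, at 1 to 10 counts, was not tested, nor were Cd209a and Siglech. The 10 Kupffer cell markers summed to 746 to 1408 and 916 to 1394 CPM, with 0 called. The 6 cholangiocyte markers summed to 39.9 to 49.8 and 51.25 to 86.5 CPM, also without overlap, and Spp1 was the 1 called. Spp1 made up most of this sum in both female groups, at the means given above. Krt19, Krt7, Epcam and Sox9 had log2 fold changes of 0.08 to 0.56 and were not called, and Cftr was not tested. The 9 stellate cell markers summed to 255 to 311 and 238 to 426 CPM, with overlap and 0 called. The 8 sinusoidal endothelial markers summed to 254 to 354.5 and 222 to 309 CPM, with overlap, 0 called and a median log2 fold change of -0.27. T and NK cell markers summed to 4.76 to 14.1 and 7.85 to 29.9 CPM, and B and plasma cell markers to 8.05 to 12.4 and 7.18 to 66.05 CPM, with 0 called in either list. LKO female replicate 5, the highest LKO female for Cxcr4 and Ccr7, was the highest in both of these lists. Neutrophil markers summed to 1.55 to 8.88 and 1.87 to 19.3 CPM with 0 called, the highest being LKO female replicate 6, which was also the highest LKO female for Cxcl1, and the neutrophil marker Ly6g had 0 to 2 counts per female library. The 6 hepatocyte markers summed to 77630 to 94430 CPM in control females and 52970 to 84850 CPM in LKO females. In males the recruited monocyte list summed to 106 to 349 CPM in controls and 93.2 to 432 CPM in LKO livers, with 0 called. The part of these cell markers in the chemokine results was not tested.

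**Figure D5:**
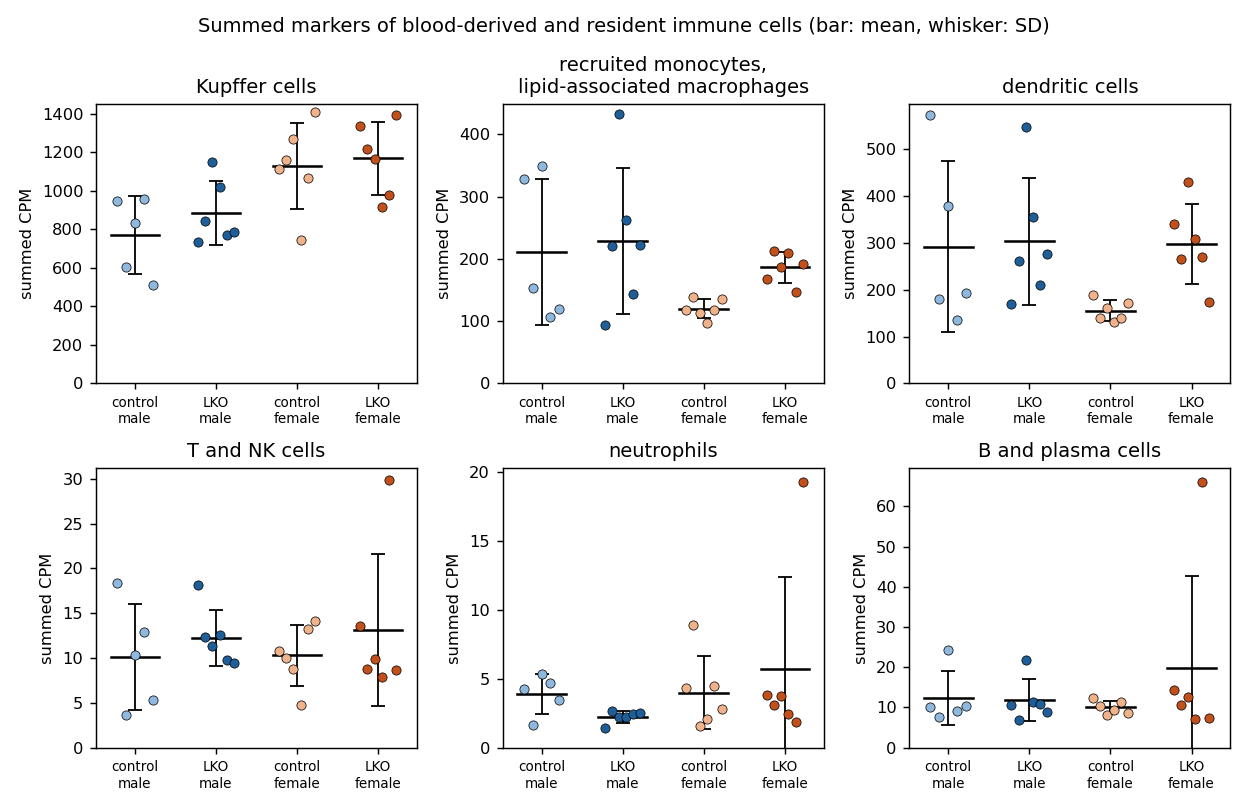
Summed CPM of marker lists of 6 immune cell types in each sample of the 4 groups; bars are means and whiskers SD, cut at 0. Of the 6 lists drawn, the recruited monocyte and lipid-associated macrophage list separates control females (96.9 to 139 CPM) from LKO females (147 to 213 CPM), and the female groups overlap in the other 5.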

How the data were processed

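Members and gene lists were chosen with earlier results of these data known. Per the labels, polyadenylated RNA was sequenced with a dUTP protocol; per the submitters' processing notes, HISAT2 2.0.5 and the mm39 build were used, and the counter and its strand setting are not given in the sources used here. The authors deposited 1 table per sex with raw counts and FPKM per sample, and their own log2 fold changes with adjusted p-values, from a tool the sources do not name. Counts were analysed with edgeR 4.0.16 in R 4.3.3 (filterByExpr, TMM factors, glmQLFit and glmQLFTest), within each sex, and as a genotype by sex interaction over genes of both tables; p-values were adjusted by Benjamini-Hochberg over all genes tested and called under 0.05. CPM are scaled by TMM within each sex. The fits were also run on simulated counts with known changes, drawn for each gene separately. Such counts carry no variation shared across genes beyond library size, so that run cannot vouch for the calls reported here. DESeq2 1.42.0, other scalings and filters, a replicate block, a joint fit of all 23 samples and leaving out each sample were alternatives. Sample values are given for members called in either sex or the interaction, for those with an unadjusted p under 0.05 in a sex and a mean of at least 10 counts there, and for the 3 with the highest mean FPKM in each role class, 18 members in all; of each further list, called genes and the 3 with the lowest p per sex are named. The member counts cover all 53, but the values of 1 member are not reported here and it is left out of the figures. Promoter letters came from RefSeq (GRCm38.p6). Cxcl3, listed in the male table only at 0 to 3 counts, is no member. Of the 53 members, 16 overlap another gene's listed span.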

Additional observations from a re-analysis of the deposited data

Results flagged for a closer look

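Single samples stood apart from the rest of their group in 11 of 72 groups, formed by the 18 members with sample values and the 4 groups of mice, by Dixon's gap ratio at its 95% critical value. Chance gives about 1 in 20 groups only for independent groups of normally distributed values. These groups share libraries and were examined as untransformed CPM, so that rate is no yardstick for the 11. Control male replicate 1 did so for Ccl5 (14.3 CPM, others 1.66 to 3.74), Cxcl9 (30.9 CPM, others 7.61 to 13.2) and Cxcr3 (1.88 CPM, others 0.234 to 0.483). That library also had the highest T and NK cell marker sum of its group, 18.4 CPM. It was likewise the highest for the dendritic cell (574 CPM), stellate cell (536 CPM) and sinusoidal endothelial (330 CPM) sums, but not for the remaining lists. For Cxcl1, control male replicate 4 (85.4 CPM, others 13.2 to 33.2), LKO male replicate 1 (106.5 CPM, others 7.06 to 19.4) and LKO female replicate 6 (36.1 CPM, others 10.9 to 19.8) stood apart. LKO male replicate 1 was also high for Ackr2 (4.96 CPM, others 3.16 to 3.83). Control female replicate 4 was high for Cxcl12 (332 CPM, others 246 to 276) and low for Cxcr4 (1.88 CPM, others 3.92 to 4.67). Control female replicate 2 was high for Ccl22 (0.916 CPM, others 0.332 to 0.545), and control female replicate 6 was high for Cxcl9 (29.3 CPM, others 13.65 to 18.4).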

How the results depend on the processing

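The count of 5 members called in females was 4 to 6 under other scalings and filters and in DESeq2, and 0 in a fit of all 23 samples, where the adjusted p was 0.091 for Ccl6, 0.0768 for Ccr2, 0.142 for Cx3cr1, 0.0817 for Cxcl14 and 0.183 for Cxcl16; the cause was not tested. Leaving out 1 sample gave 1 to 5: 3 without control female replicate 1 or 5, 2 without control female replicate 6 or LKO female replicate 4, and 1 without LKO female replicate 2 or 3. Male and interaction counts of members were 0 in every alternative run. Deviations of same-numbered samples correlated at r 0.0069 to 0.177 in females, over 0.1 in 4 of 6 pairs, and at -0.341 to 0.404 in males; since not every pair was over 0.1, the numbers were not taken as pairs; with the replicate block 5 members were called, and Cxcl14 (adjusted p 0.055) was not among them. The block turned the sign of Cx3cr1 (0.18) and Cxcr4 (0.11) in males and of Ccl5 (0.057) and Ccrl2 (0.0054) in females, and called 1 inducer and 2 further chemokine-system genes in females, against 0 of the latter in the fit of all 23 samples. Ccl5 in females also turned sign with library size alone (0.042) and with at least 10 counts in every sample (0.0040). None of the log2 values whose sign turned had been called. With 1 sample left out they ran in males from -0.12 to 0.33 for Ackr1, -0.17 to 0.97 for Ccl5, -0.0068 to 0.43 for Ccl6, -0.33 to 0.30 for Ccr2, -0.018 to 0.25 for Ccrl2, -0.46 to 0.24 for Cx3cr1, -1.45 to 0.22 for Cxcl1, -0.018 to 0.33 for Cxcl14, -0.028 to 0.25 for Cxcl16 and -0.19 to 0.11 for Cxcr4. In females they ran from -0.31 to 0.041 for Ackr2, -0.095 to 0.27 for Ccl5, -0.17 to 0.09 for Ccrl2 and -0.16 to 0.15 for Cxcl9. Counts under 20 in every female control limit Ccl22, Cx3cr1 and Cxcr3, and 18 members lay near the floor in both tables.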
